A study of Brassica oleracea with 15 samples.

Results

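AT5G45670 is an Arabidopsis gene of the GDSL esterase/lipase family on Arabidopsis chromosome 5, and its signal was followed across all groups of a study of bending seedlings. It was taken by its probe set as 1 of 13350 genes that had a probe set of a single gene. The gene was chosen by its log2 signal, which separated the flanks of the hypocotyl in these arrays, so its own values are given as a description with no test. The question put to them was whether the flanks differed because the slower growing side lay below the unstimulated control or because the faster growing side lay above it.

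GDSL esterases and lipases are a large plant family of serine hydrolases, named for a conserved motif around the catalytic serine. Many are secreted to the cell wall, where members studied in Arabidopsis and tomato build or cut lipid polymers such as cutin, the polyester of the cuticle, and others remove acyl groups from small molecules. In an etiolated hypocotyl, growth is almost wholly cell elongation, and bending comes from unequal elongation of opposite sides, which follows from unequal auxin. No substrate of the AT5G45670 protein is assumed here.

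The samples were wild type Brassica oleracea seedlings, 3 days old and etiolated, with about 100 seedlings in a pool and no allele or agent other than the stimulation. Seedlings had blue light from one side for 2 h, a gravity stimulation for 2 h, or a mock stimulation as the control, and the outer part of each side was cut away from the vascular tissue. There were 5 groups of 3 arrays: shaded and lit flanks after blue light, bottom and top flanks after gravity, and control flanks, taken from the left and right sides together. The shaded and bottom flanks elongate more in these responses and are called the elongating flanks, and the lit and top flanks are called the opposite flanks. The titles gave the groups; the extraction text of the lit samples names shaded flanks, and that of some gravity samples names top and shaded flanks.

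The Brassica cRNA was hybridised to ATH1 arrays, whose probes were designed on Arabidopsis, and mismatches between the species lower the signal. Brassica oleracea often has several copies of an Arabidopsis gene, and the signal cannot tell them apart. Every array had been scaled to a trimmed mean signal of 500. The fit held 11371 brighter probe sets, those with a mean log2 signal of at least 8.28, and AT5G45670 had a mean log2 signal of 12.71. The median correlation of an array with the other arrays ran from 0.802 to 0.845, so no array stood far apart over all genes. The tissue could not be checked by its markers: 1 of 8 epidermal markers (CR4, dim, at 20.1 to 285.2 over all arrays) and 0 of 15 vascular markers had a probe set that could be named. The number of arrays limits the precision. In bulk tissue, fewer cells of a type and less RNA per cell cannot be told apart.

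AT5G45670 was lowest in the lit flank and next lowest in the top flank, and no array of these opposite flanks reached any control array. The elongating flanks overlapped the control. For the bottom flank this overlap came from control replicate 1 alone, and every bottom array lay above the other control arrays. After blue light, the shaded flank arrays had signals of 6968.7, 7878.6 and 7040.2. The lit flank arrays had 3613.3, 3158.9 and 2229.7. Each shaded array was therefore brighter than each lit array, by 1.93-fold at the closest pair and 3.53-fold at the widest.

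After gravity stimulation, the bottom flank arrays had signals of 10200.5, 10307.4 and 13024.9. The top flank arrays had 5506.9, 4981.7 and 6227.6. The groups did not overlap, and the closest pair differed by 1.64-fold. The control arrays had 17294.8, 8494 and 7064.6, so that control replicate 1 was the brightest of all 15 arrays and the other control arrays lay near the shaded flank.

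**Figure D1:**
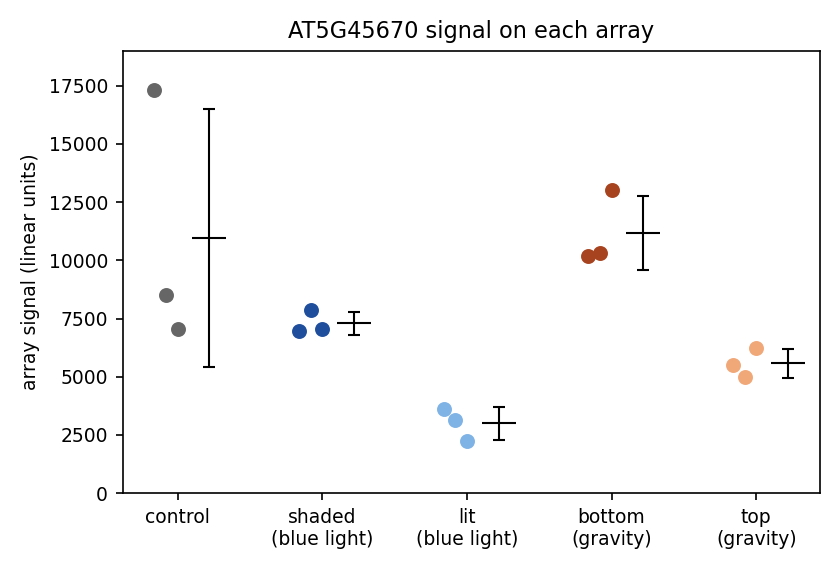
AT5G45670 signal (linear array units, axis from 0) on each array; points are arrays in order of replicate number, and the bar beside them is the group mean with its SD (n = 3). The lit arrays lie between 2229.7 and 3613.3 and the top arrays between 4981.7 and 6227.6, all below the lowest control array at 7064.6.

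Ordered by mean log2 signal, the groups ran bottom (13.44 ± 0.20, SD, n = 3), control (13.31 ± 0.68), shaded (12.83 ± 0.10), top (12.44 ± 0.16) and lit (11.52 ± 0.36). Bottom and control overlapped, and their means differed by 0.13 with an SE of 0.41 from the arrays of both groups. Control and shaded also overlapped, with a difference of 0.47 and an SE of 0.40. Neither pair of neighbours therefore differed beyond its spread. Shaded and top did not overlap but were close, at 0.39 with an SE of 0.11, and the lowest shaded array was 1.12-fold above the highest top array. Top and lit did not overlap and differed by 0.92 with an SE of 0.23. The 4 flank groups were thus all apart from one another, which 0.0528% of the tested probe sets showed.

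Shaded and lit flank differed by 1.31 on the log2 scale (SE 0.26, limma fit over all arrays), a 2.48-fold difference. Bottom and top flank differed by 1.00 (SE 0.26), a 2.00-fold difference. The sizes in both stimulations differed from each other by 0.31 with an SE of 0.36, which is within the error. Over both, the elongating flanks were 2.23-fold above the opposite flanks, with a log2 difference of 1.15 (SE 0.18). In this contrast 0.369% of the tested probe sets, 42 of 11371, had every elongating array above every opposite array, and AT5G45670 was one of them by the choice of the gene. Of these 42, 20 (0.176% of all tested probe sets) also had every control array above every opposite array. AT5G45670 was again among them, which is a description and no test. With its estimate of 1.15 it held rank 19 among all tested probe sets ordered from the highest difference down.

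Set against the control, the lit flank differed by -1.78 (SE 0.26) and the top flank by -0.87, while the shaded flank differed by -0.47 and the bottom flank by 0.13, each with the same SE. The opposite flanks together differed from the control by -1.33 (SE 0.22), a 2.51-fold lower signal, and the elongating flanks by -0.17 (SE 0.22). These SEs rest on a single estimate of the spread shared by all groups, although the control arrays spread most. From the arrays of both groups alone, the SE was 0.45 for lit against control and 0.40 for top against control. The SEs of the fit thus understate the error against the control. In 3.51% of the tested probe sets every control array lay above every opposite array. With all control arrays the difference between flanks thus lay on the side of a lower signal in the opposite flanks, with no rise above the control in the elongating flanks beyond its error.

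That reading leans on the control group, whose arrays spread 2.45-fold, against 1.13-fold to 1.62-fold within the flank groups. Without control replicate 1 the opposite flanks were at -0.94 (SE 0.18) and the elongating flanks at 0.22 (SE 0.18), with the shaded flank at -0.09 (SE 0.20). Without control replicate 3 the elongating flanks were at -0.43 and the opposite flanks at -1.59 (values with SE 0.23), and the bottom flank was at -0.13. The sign for the elongating flanks therefore changed with the control arrays used, and the bottom flank lay above the control or below it. The opposite flanks, pooled over both stimulations, lay below the control whichever control array was left out, and farther from it than the pooled elongating flanks did. For gravity alone this did not hold: without control replicate 1 the top flank was at -0.48 and the bottom flank at 0.52 (both SE 0.20), about equally far from the control on either side. For blue light alone the lit flank was at -1.40 there, farther from the control than the shaded flank.

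**Figure D2:**
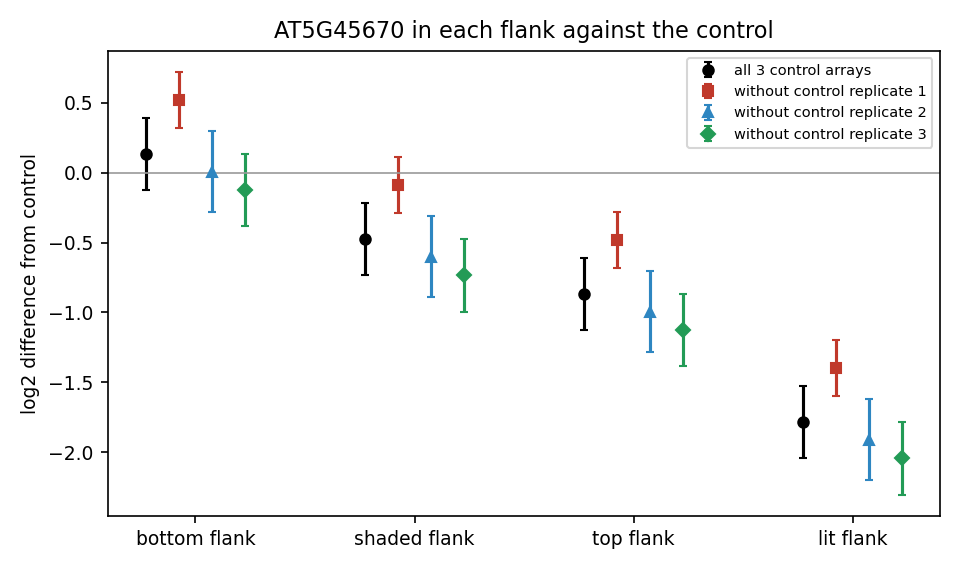
Log2 difference of AT5G45670 from the control in each flank (points, bars are the SE of the fit), with all control arrays and with each control array left out. The lit flank stays between -2.04 and -1.40 and the top flank between -1.13 and -0.48. The bottom flank runs from -0.13 without control replicate 3 to 0.52 without control replicate 1.

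Control replicate 1 also stood highest among all arrays in the log2 signal of the 3 prime probe sets minus that of the 5 prime probe sets of 3 control transcripts, which rises as cDNA gets shorter. The value was 0.40 there, against -0.04 and -0.18 on the other control arrays. In the flank groups it averaged -0.29 (shaded), -0.34 (lit), -0.14 (bottom) and -0.21 (top), and in the control 0.06. Of the flanks, lit had the lowest mean and bottom the highest, as in AT5G45670, while shaded lay below top, unlike in AT5G45670. The lit arrays ran from -0.50 to -0.24 and the bottom arrays from -0.27 to -0.05. The part of this measure in the result was not tested. The residual SD of AT5G45670, pooled over the groups, was 0.37 on the log2 scale. It was larger than that of 82.6% of the 500 probe sets nearest in brightness, whose median was 0.25. By group its SD was largest in the control, at 0.68, against 0.10 (shaded), 0.36 (lit), 0.20 (bottom) and 0.16 (top).

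Both flanks were dimmer after blue light than after gravity. The lit flank lay below the top flank by a log2 difference of -0.92 (SE 0.26), and the shaded flank below the bottom flank by -0.61 (SE 0.26). Over both flanks blue light differed from gravity by -0.76 (SE 0.18), a 1.70-fold lower signal. Every gravity array lay above every blue light array of the same growth side, a pattern found in 1.93% of the tested probe sets. No dates of growth or hybridisation are in the labels, so the stimulation and a batch cannot be told apart.

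A comparison with other genes that separate the flanks shows where the control stood in each. Of the 17 probe sets past the threshold (limma, adjusted p under 0.05) and higher in the elongating flanks (0.15% of those tested), 13 had a control mean nearer to the elongating flanks and 4 nearer to the opposite flanks. The 13 include AT5G45670 and a probe set with the control almost midway, at 0.50 of the way from opposite to elongating flanks. Most called probe sets lower in the elongating flanks also had the control nearer to these flanks. Over all tested probe sets, 0.827% passed between opposite flanks and control and 0.106% between elongating flanks and control. The arrangement was therefore not particular to AT5G45670. The genes with a name were AT5G45670, AT2G19880, HAT2, AT2G39130 and WES1, and these were picked after their values were seen. AT5G45670 is among them by the choice of the gene, and its place there is no test of it. All 27 probe sets past the threshold make up 0.237% of those tested, and the flank contrast chose them, so that their differences are a description.

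AT2G19880, which encodes a ceramide glucosyltransferase of sphingolipid synthesis, resembled AT5G45670. Its opposite flanks differed from the control by -0.95 (SE 0.17) and its elongating flanks by -0.05. WES1, the GH3.5 enzyme that joins auxin to amino acids, had the other arrangement, with opposite flanks at -0.16 (SE 0.15) and elongating flanks at 0.79. HAT2, an auxin-inducible homeodomain gene, had -0.48 and 0.75 (SE 0.24), and AT2G39130 had -0.18 and 0.52 (SE 0.14). All of these share the same control arrays. Without control replicate 1 the counts were again 13 and 4, and without control replicate 3 they were 12 and 5.

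**Figure D3:**
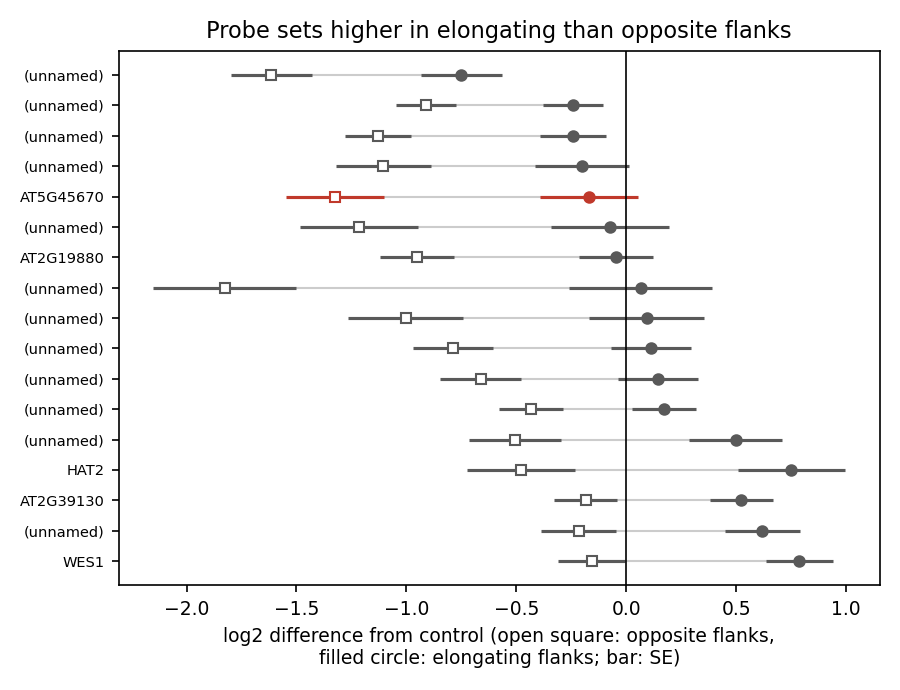
The 17 probe sets past the threshold and higher in the elongating flanks, ordered by where the control lies: log2 difference from the control of the opposite flanks (open squares) and of the elongating flanks (filled circles), with the SE of the fit. For AT5G45670 (red) the values are -1.33 and -0.17, and for WES1 they are -0.16 and 0.79.

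The rest of the GDSL family was examined to see whether it shared this pattern. Of 113 family genes listed by their Arabidopsis loci, 75 had a named probe set, and 74 of these were other than AT5G45670. The 34 dim ones were not tested, which left 40. None of the 40 passed the threshold (limma, adjusted over all tested probe sets) between elongating and opposite flanks, where 0.237% of all probe sets did. At an unadjusted p under 0.05 there were 4 of the 40, against 8.63% of all tested probe sets.

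The estimates of the 40 lay on both sides of 0, with a median log2 difference of -0.02, where the median over all tested probe sets was -0.00, and 17 of them were positive (higher in elongating flanks) and 23 negative. They ran from -1.72 to 0.53, so that no tested member reached the 1.15 of AT5G45670. Their SEs ran from 0.10 to 0.49 with a median of 0.20. A difference had to exceed its SE several times over to pass the threshold. AT2G04570, at -1.72 with an SE of 0.43, did not pass, so that differences well above the SE could be missed. Among the 34 dim members the estimates ran from -1.51 to 1.28, with a median of 0.07 and no test.

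**Figure D4:**
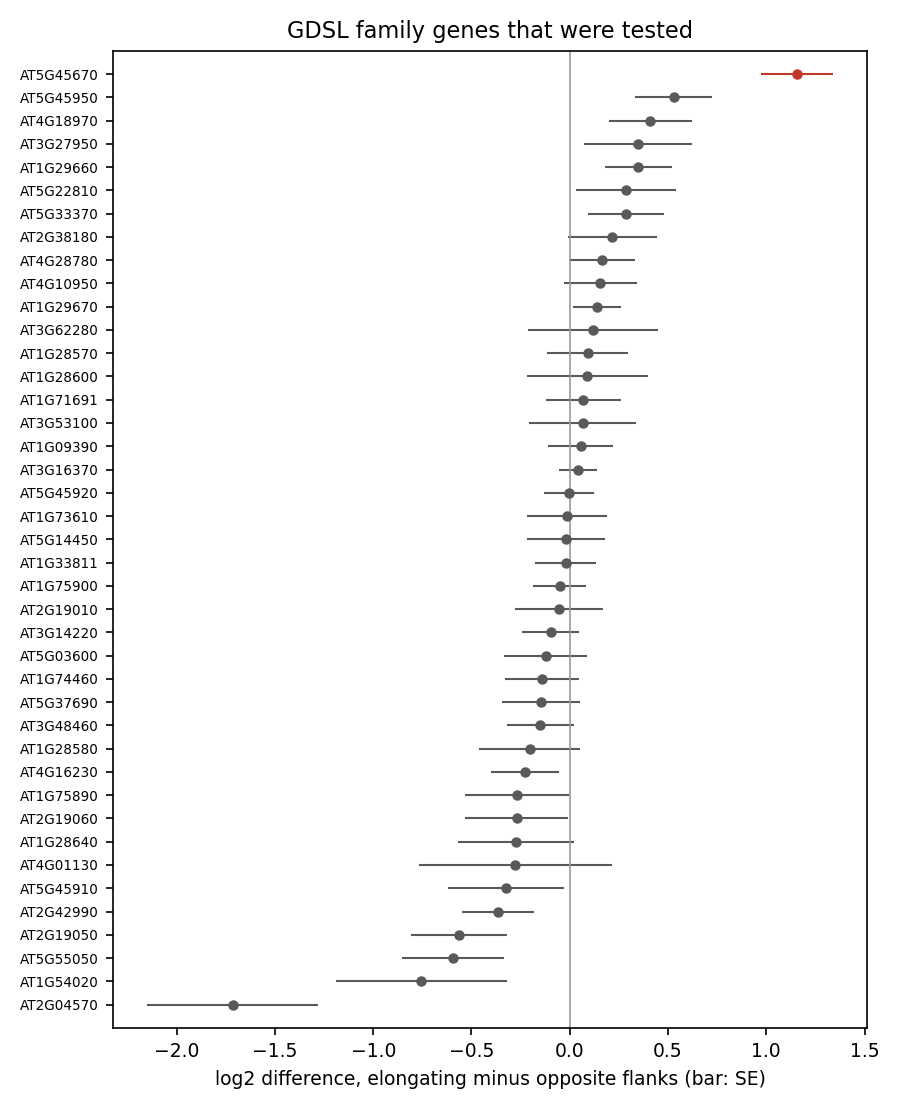
Log2 difference between elongating and opposite flanks (points, bars are the SE of the fit) of AT5G45670 (red) and the 40 other tested GDSL genes. AT5G45670 is at 1.15, the next highest is AT5G45950 at 0.53, and the lowest is AT2G04570 at -1.72.

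On the higher side the members of smallest p were AT5G45950, AT1G29660, AT4G18970 and AT5G33370. AT5G45950 had signals of 1476.8, 1290.8 and 1182.2 in the shaded flank and 790.5, 928.3 and 805.9 in the lit flank, which did not overlap. Its bottom flank, at 1166.1, 1196.9 and 782.2, overlapped its top flank, at 867.2, 446.1 and 1197. The log2 difference over both stimulations was 0.53 (SE 0.20, limma adjusted p = 0.401).

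AT1G29660 had the family's highest correlation with AT5G45670 over the 15 arrays, a Pearson r of 0.766. Its lit flank arrays, at 2847, 3636.1 and 1879.3, overlapped the shaded arrays, at 3072.4, 4427.4 and 2826.1. Its top flank arrays, at 3218.9, 4779.6 and 3511.8, likewise overlapped the bottom arrays, at 4718, 3951.7 and 6249.2. The difference over both stimulations was 0.35 (SE 0.17, limma adjusted p = 0.60).

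AT5G33370, known in Arabidopsis as the cutin synthase gene CUS2, had a log2 difference of 0.28 (SE 0.19, limma adjusted p = 0.738) and a Pearson r of 0.655 with AT5G45670. AT4G18970 had one of 0.41 (SE 0.21, limma adjusted p = 0.631). In neither gene did the 6 elongating arrays separate from the 6 opposite arrays, and this holds for all 40 tested members. Over the family, r with AT5G45670 ran from -0.68 to 0.77 with a median of -0.04.

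On the lower side stood AT2G04570, with the opposite direction to AT5G45670. Its top flank arrays had signals of 1115.3, 1751.8 and 760.1, above its bottom flank arrays at 229.3, 356.5 and 135.5. Its lit flank arrays, at 132.5, 610.9 and 561.7, overlapped its shaded arrays, at 269.5, 128 and 140.7. The difference between elongating and opposite flanks was -1.72 (SE 0.43, limma adjusted p = 0.153). Without lit replicate 1 it was -2.07 (SE 0.38) and passed, at a limma adjusted p = 0.0279. It was the only tested member that passed in any of the fits that left out 1 array.

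AT2G19050, AT5G55050 and AT2G42990 had differences of -0.57 (SE 0.24), -0.59 (SE 0.26) and -0.36 (SE 0.18), with limma adjusted p values of 0.517, 0.525 and 0.612. AT5G55050 had the family's lowest r with AT5G45670. Against the control the tested members gave no call either. Between opposite flanks and control 0 of the 40 passed, where 0.827% of all tested probe sets did, with 4 at an unadjusted p under 0.05 (11.6% of all) and a median log2 difference of 0.00. Between elongating flanks and control 0 passed, where 0.106% of all did, with 0 at an unadjusted p under 0.05 (8.87% of all) and a median of 0.02.

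Between blue light and gravity, a comparison added after the data were seen, 0 of the 40 passed in limma, where 2.22% of all tested probe sets did, and 7 had an unadjusted p under 0.05 (15.5% of all). The lowest adjusted p of the family there was 0.142 in limma. For the flank difference after blue light minus that after gravity, the interaction, 0 of the 40 and 0% of all tested probe sets passed in limma, with 1 member at an unadjusted p under 0.05 (3.37% of all). Given the SEs, these tests do not show that the members did not change.

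The genes whose log2 signal was most like that of AT5G45670 were taken by Pearson r over the 15 arrays, among 6283 other tested probe sets of a single gene. These correlations describe arrays that share groups, scaling and the control arrays. The 10 most alike had r from 0.828 to 0.904, where the quartiles over all tested probe sets were -0.24 and 0.22. In all 10 the lit flank had the lowest group mean, which was so in 20.2% of all tested probe sets, and the bottom flank or the control had the highest. The choice by r brings such patterns about, so that they are no separate result.

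AT2G18740, which encodes a small nuclear ribonucleoprotein of the spliceosome, had the highest r, 0.904. Its lit arrays had signals of 284.1, 244.4 and 209.7 and its control arrays 727, 586 and 417, with control replicate 1 highest as in AT5G45670. AT4G23820, a pectin lyase-like gene of the cell wall, had an r of 0.900, with 2199.4, 1916.7 and 1745.9 in the lit flank and 2766.9, 3993.2 and 3519 in the bottom flank. These bottom flank signals lay above every lit and top flank signal of the gene. AT2G40620, a bZIP transcription factor gene, had an r of 0.895, and AT1G09750, an aspartyl protease gene, one of 0.876.

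The others were AT3G13980 (r = 0.864), AT3G04830 (0.864), the acetyl-CoA synthetase gene ACS (0.850), AT2G19880 (0.850), the protein kinase gene PTI1-4 (0.833) and the beta glucosidase gene BGLU15 (0.828). In AT3G13980 and AT2G19880, 2 of the 10, every elongating array also lay above every opposite array, as in AT5G45670. AT2G19880 had 1089.5, 1078.6 and 1107.9 in the shaded flank and 635.5, 740.6 and 484.9 in the lit flank. It had 1177.8, 1397.3 and 1191 in the bottom flank and 575.1, 570.2 and 795 in the top flank. In 6 of the 10 every control array lay above every opposite array.

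Part of the likeness lay within groups. The correlation of the deviations from group means was 0.83 for AT2G18740 and 0.76 for AT1G09750, and 0.40 for AT3G04830, the lowest of the 10. The choice by r over the same arrays favours high values here. In AT5G45670 control replicate 1 lay 0.77 above its group mean. It was also the brightest control array in each of the 10 most alike genes except AT3G04830. The correlation of the deviations was not taken without that array. Without control replicate 1, r was 0.873 for AT2G18740, 0.894 for AT4G23820 and 0.919 for AT3G04830, and 7 of the 10 were again among the 10 most alike. Without lit replicate 3, the dimmest array for AT5G45670, the r of AT2G18740 was 0.867 and that of AT2G19880 was 0.792. WES1 and HAT2, whose flanks also separated, had an r of 0.487 and 0.296.

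The 5 most opposite genes were XTH32 (r = -0.905), AILP1 (-0.860), AT5G17700 (-0.858), AT1G50020 (-0.830) and AT1G14270 (-0.825), and in all 5 the lit flank had the highest group mean. XTH32 encodes a xyloglucan endotransglucosylase/hydrolase, an enzyme that cuts and rejoins wall xyloglucan. Its signals were 3123.5, 2678 and 4527.8 in the lit flank and 1665.7, 1694 and 2446.1 in the shaded flank, without overlap. In the top flank they were 1919.6, 1554.8 and 1360.9 and in the bottom flank 1328.1, 780.4 and 873.4, also without overlap. AILP1, an aluminium-responsive gene, had 10024.1, 12998.2 and 12954.4 in the lit flank and 4727, 4176.6 and 5741 in the bottom flank.

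**Figure D5:**
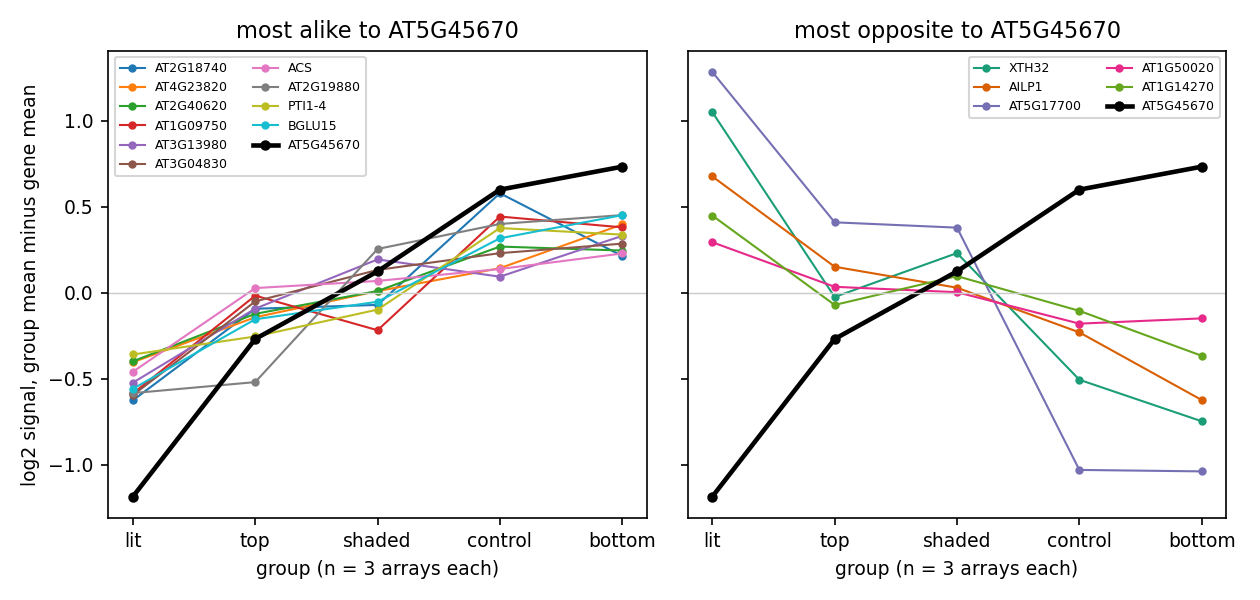
Group means of log2 signal minus the gene's mean over the 5 groups (n = 3 arrays each), for AT5G45670 (black) with the 10 most alike genes (left) and the 5 most opposite genes (right). AT5G45670 runs from -1.18 in the lit flank to 0.73 in the bottom flank, a wider range than that of any of the 10 alike genes.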

How the data were processed

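The deposited values are linear Affymetrix signal intensities, 1 per probe set. The submitters' processing notes name GCOS 3.0 but no settings. The deposited arrays had a common trimmed mean (lowest and highest 2% left out). Gene names came from the array's annotation table, in which 13513 probe sets had 1 gene symbol, 503 several and 8794 were not listed. Here 1 value at or below 0 was set to 0.4, log2 was taken, 64 control probe sets were dropped, and those whose mean log2 signal reached the median over the array were kept. A model of 5 group means (10 residual degrees of freedom) was fitted with limma 3.58.1 in R 4.3.3, with an intensity trend and Benjamini-Hochberg adjustment over all tested probe sets, and was tested on simulated data. The series' design text calls the triplicates biological samples.

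The gene, lists and tests were chosen with earlier results of these data known. Named family members were the 4 of smallest p in each direction, and any past the threshold. Named similar genes were the 10 highest and 5 lowest by Pearson r. Of 36 cuticle genes 2 (WSD1, SHN3) had a named probe set of the right chromosome and both were dim, so that list was not analysed here. Pairing was checked by the deviations of same-numbered arrays from their group means, whose correlation was 0.04 to 0.15 for shaded and lit flank and -0.02 to 0.06 for bottom and top flank. Between differently numbered arrays it was -0.12 to -0.02 for shaded and lit flank, below all same-numbered ones. For bottom and top flank it was -0.07 to 0.06, which overlapped the same-numbered ones. Deviations cancel within each group, so positive values between same-numbered arrays push the others negative. The values of differently numbered arrays are therefore no separate result. The alternatives were other scalings, filters, variance models, an offset of 50, array subsets, a replicate block and leaving out each array.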

Additional observations from a re-analysis of the deposited data

How the results depend on the processing

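For AT5G45670 the difference between elongating and opposite flanks lay between 1.13 and 1.19 under the 9 alternatives and between 1.05 and 1.23 with 1 array left out. Against the control, the alternatives gave -1.37 to -1.18 for the opposite and -0.21 to -0.05 for the elongating flanks, and leaving out 1 array gave -1.59 to -0.94 and -0.43 to 0.22. No tested family member was called under these alternatives, and with 1 array left out the count was 0 to 1 between the flanks and 0 in the other comparisons. The count over all tested probe sets was less stable. It was 27 between the flanks, against 15 without the filter, 4 without the intensity trend and 5 to 29 with 1 array left out. It was 5 without shaded replicate 2, 6 without lit or bottom replicate 3, 12 without bottom replicate 2 or top replicate 1, and 16 without shaded replicate 1 or lit replicate 2. For the opposite flanks against the control it was 94, against 39 without the filter, 21 without the trend, 181 with array weights, 53 with only the arrays of the groups compared and 21 to 132 with 1 array left out. It was 21 and 26 without control replicates 1 and 2, 36 and 45 without top replicates 1 and 3, and 57 and 44 without lit replicates 2 and 3. For the elongating flanks against the control it was 12, against 4 without the trend, 24 with array weights and 3 to 17 with 1 array left out. It was 3 and 4 without control replicates 1 and 2 and 7 without bottom replicate 1 or 2. For blue light against gravity it was 253, against 145 without the filter, 106 without the trend and 132 to 252 with 1 array left out. It was 146 without shaded replicate 1, 139 without lit replicate 3, 160 and 132 without bottom replicates 2 and 3, and 150 and 154 without top replicates 2 and 3. The causes were not tested. With the replicate block the count between the flanks was 45 and the difference of AT5G45670 was 1.15 (SE 0.11). Same-numbered arrays deviated together, weakly, for shaded and lit flank, but not throughout for bottom and top flank. The titles do not call the numbers pairs, and they were not taken as pairs in the main fit. No cuticle gene was tested, so that count has no alternatives.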

Other observations

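The 4 flank groups did not overlap in 6 of the 11371 tested probe sets (0.0528%), of which 5 have a name, AT5G45670 included. Among these, AT1G14270, a CAAX protease family gene, ran the other way in both pairs of flanks. Its signal was 2799.3 to 2893.4 in the lit flank, 2102.8 to 2410.1 in the shaded flank, 1916.3 to 2056.7 in the top flank and 1502.6 to 1683.7 in the bottom flank. Its control arrays, at 1902.3 to 1965.4, overlapped the top flank and lay below both blue light flanks. In AT1G22550 the groups were ordered by stimulation, with 1142.9 to 1161.6 in the shaded, 1185.4 to 1260.4 in the lit, 1385.1 to 1590.7 in the top and 1600 to 1673.7 in the bottom flank. AT3G48420 was highest in the lit flank, at 747.4 to 921.3, and lowest in the top flank, at 279.1 to 328.2, so that its flanks differed in opposite directions after light and gravity. The flanks of AT1G22550 and AT5G24980 did so too. AT5G24980 had 376.8 to 427.4 in the lit and 528.7 to 538 in the shaded flank. It had 541.7 to 725.1 in the top and 474.3 to 487.5 in the bottom flank. These genes were picked after their values were seen, and their differences were not tested.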
